A study of Mus musculus with 12 samples.

Results

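Basophils grown from mouse bone marrow with interleukin-3 (IL-3) were compared at 2 stages of maturation, immature against mature. The members are the 6 IL-3 libraries among the 12 libraries of the series, 3 of FcεRIαhi CD49blo cells and 3 of FcεRIαlo CD49bhi cells, picked by the column names of the count table. Bone marrow of C57BL/6J wild-type mice was cultured for 7 days with 0.3 ng/mL IL-3, which all 6 libraries share, and the bone marrow-derived basophils (BMBAs) were then sorted into the fraction called immature here, pre-basophils in the study, and the mature fraction. The other 6 libraries came from the same strain cultured for 7 days with 1 µg/mL thymic stromal lymphopoietin (TSLP) and sorted in the same way. A sample label writes the TSLP concentration as 1 mg/mL, while the growth protocol and the study write 1 µg/mL. The study gates BMBAs as CD200R3+ c-Kit-, but its description of these 12 libraries writes c-Kit+, and Kit transcripts were at or near 0 in all 6 IL-3 libraries. It counts 3 cultures for each group. These are cells of a cytokine culture rather than of tissue, and neither the age of the mice nor pooling of marrow is given in the sources used here.

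Basophils are rare granulocytes that bind IgE through the high-affinity receptor FcεRI and release histamine, lipid mediators, proteases and cytokines when it is cross-linked. They arise in bone marrow from granulocyte progenitors, and IL-3 drives their growth and survival through a receptor made of an alpha chain and the common beta chain, which signals by JAK2 and STAT5. The comparison addressed which programmes of a growing precursor differ from those of the mature cell, namely granule content, metabolism, signalling, surface receptors and effector output.

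Total counts were 1720065, 3228981 and 2683798 in the immature libraries and 2916543, 2761278 and 2381782 in the mature libraries. Ribosomal RNA held 14.7% to 25% of the counts in immature and 20.4% to 24.5% in mature libraries when the overlapping symbols Rn45s, Rn18s and Rn28s1 were added, and mitochondrial transcripts held 2.43% to 3.69%. Of 31301 gene symbols, 10861 passed the filter on low counts and were tested. Differentially expressed genes were called at an adjusted p under 0.05 by the quasi-likelihood test of edgeR. There were 5020 of them, 46.2% of the genes tested, with 2404 (22.1%) higher in immature and 2616 (24.1%) higher in mature BMBAs. Every count of list members below is to be read against these shares. Gene levels are in CPM, counts scaled to a common library size, after normalisation by the trimmed mean of M values, given as mean ± SD (n = 3) or for libraries 1, 2 and 3 in turn. They are shares of a library and not amounts per cell, so fewer expressing cells and less RNA per cell cannot be told apart. Log2 fold changes are immature minus mature with their standard error, from the fitted model. Folds are ratios of the counts summed over the 3 libraries of a group and divided by their summed normalised library sizes, so that they depart slightly from the fitted values. The median over all genes tested was -0.06. Scaling by library totals without Rn45s moved this median by 0.23, and the share of calls higher in immature then rose from 47.9% to 62.5% (3093 higher in immature and 1859 higher in mature).

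The sorted proteins and the basophil markers were checked first. Fcer1a, which encodes the FcεRIα chain used in the gate, measured 1599, 1614 and 1584 CPM in the immature libraries and 1267, 937 and 865 CPM in the mature libraries (1.54-fold higher in immature cells). Itga2, which encodes CD49b, also used in the gate, measured 31, 28.3 and 22.5 CPM in the immature libraries and 192, 240 and 309 CPM in the mature libraries (9-fold higher in mature). These differences follow from the sort and are no finding. The basophil markers Mcpt8, Cd200r3, Ms4a2, Gata2 and Hdc were all at 329 CPM or more in every library, whereas the mast cell list summed to 1.99 to 8.73 CPM in immature and 1.35 to 8.9 CPM in mature libraries, with 0 of its 9 genes tested and the defining markers Kit, Cma1, Mcpt4 and Tpsb2 at or near 0.

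Markers of other cells moved with the groups. Of 10 neutrophil markers 5 were called higher in mature and 0 in immature libraries, and their summed level ran from 121 to 177 CPM in immature to 1204 to 1430 CPM in mature libraries. Most of that sum was the chemokine receptor Cxcr2 (85.1 against 957 CPM, immature against mature). The markers called with it included the neutrophil collagenase, a granule protein (log2 fold change -1.48, adjusted p = 0.0136). Its call was lost without immature library 2 (0.0686) or 3 (0.0863). The granule genes Ngp, Ltf, Camp, S100a8 and S100a9 were not called with all 12 libraries, although each was higher in every mature than in every immature library. All 5 were called higher in mature cells without TSLP mature library 1 (adjusted p from 0.000219 to 0.00186). S100a9 measured 40.8, 37.1 and 18.2 CPM in the immature libraries and 132, 98.7 and 101 CPM in the mature libraries. Of 10 tested monocyte and macrophage markers 6 were called higher in mature libraries (summed level 118 to 142 against 592 to 735 CPM), Ccr2 and Adgre1 among them, whereas C1qa, C1qb, C1qc and Ms4a7 did not pass 13.2 CPM in any library. All 3 dendritic cell markers tested were called higher in mature libraries, and their list summed to 34.8 to 70.8 CPM in immature and 95.6 to 187 CPM in mature libraries. The stem and progenitor list summed to 756 to 872 CPM in immature and 16.4 to 26 CPM in mature libraries, with 4 of the 6 genes tested called higher in immature and 1 in mature libraries. In the eosinophil list Siglecf and Ccr3 were called higher in mature and Prg2 in immature libraries, with the sum at 32.6 to 41.2 CPM in immature and 66.3 to 91.2 CPM in mature libraries. The T and NK cell list, of which Nkg7 alone was tested and called higher in immature libraries, summed to 45.7 to 50.8 CPM in immature and 4.06 to 4.74 CPM in mature libraries. The part of such cells in the results below was not tested.

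Across 43 programme lists, which held 1949 of the genes tested, immature BMBAs had more calls for granule proteases, mitochondria, nucleotide and sterol synthesis, ribosome production and the endoplasmic reticulum (ER), and mature BMBAs for lysosome, autophagy, nearly every signalling list, surface receptors and cytokines. Some lists held calls in both directions in similar number, among them glycolysis, fatty acid synthesis and iron and oxidant defence.

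**Figure D1:**
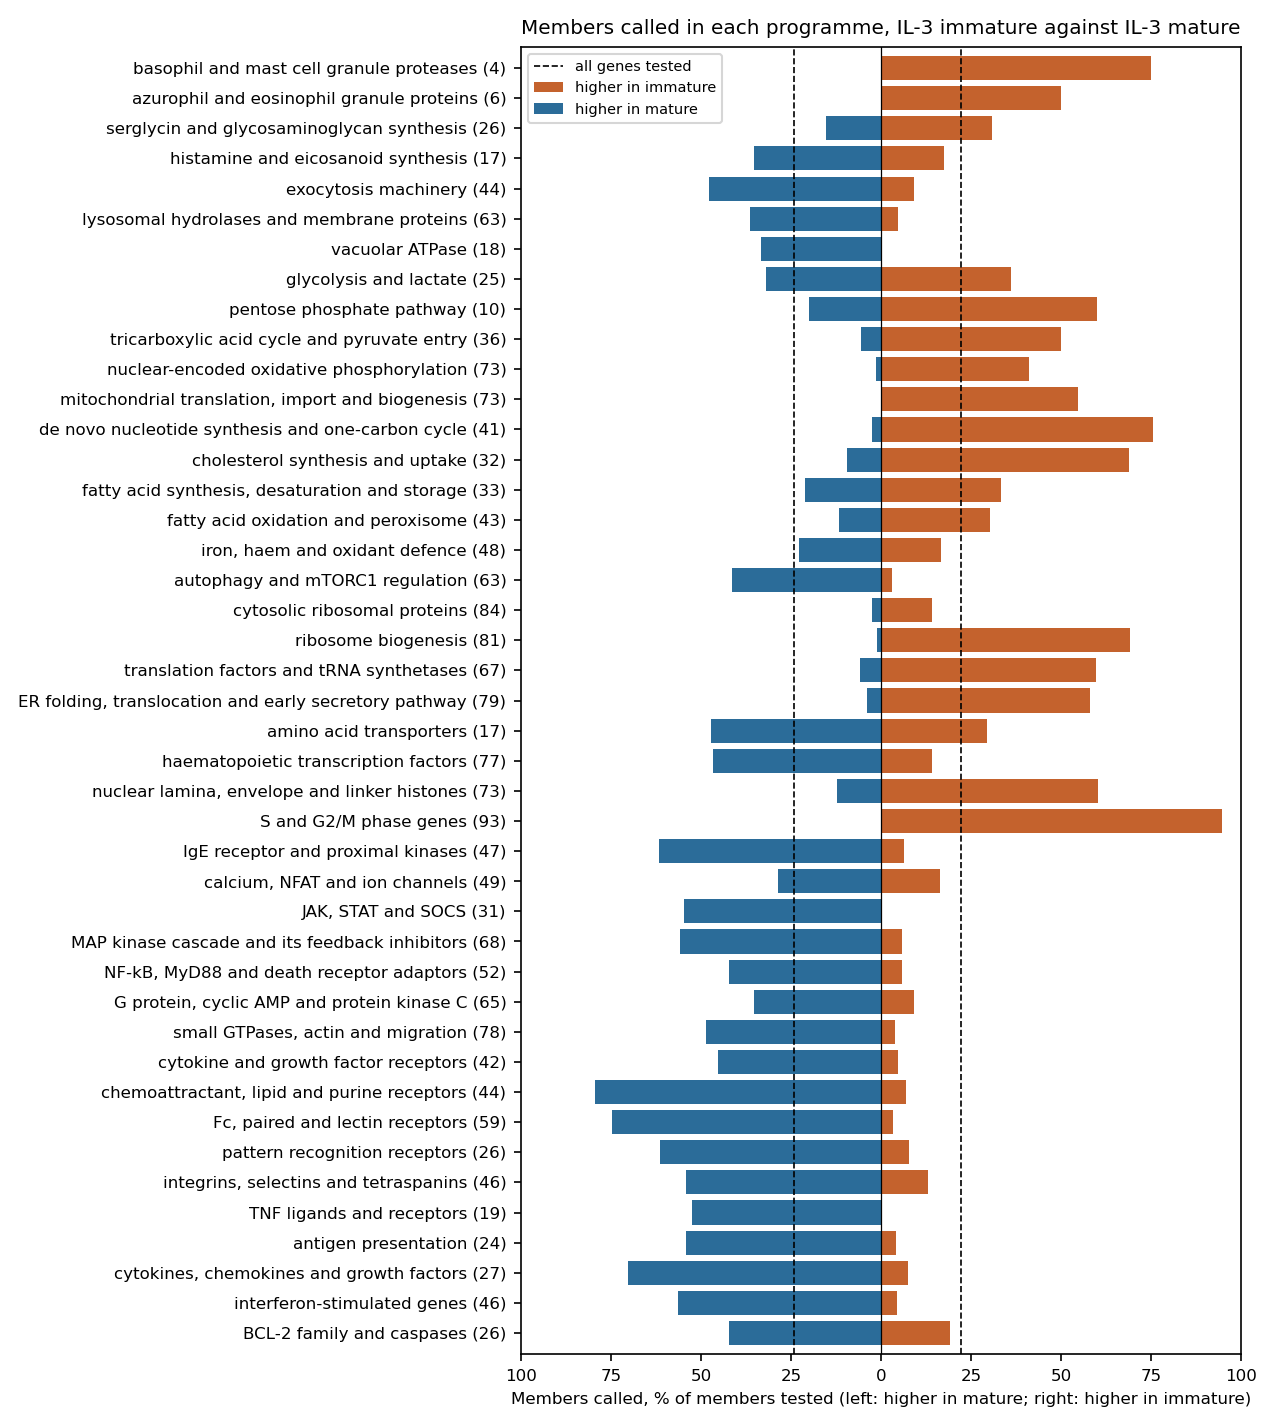
Percentage of the tested members of each of the 43 programme lists called higher in immature (right, orange) or higher in mature BMBAs (left, blue), with the number of members tested in brackets and dashed lines at the shares over all 10861 genes tested (22.1% and 24.1%). Biosynthetic lists extend to the right, and signalling and receptor lists to the left.

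Secreted granule proteases took up a larger share of the immature libraries. The granule protease list held 4.41%, 4.34% and 4.47% of the counts of the immature libraries and 0.823%, 0.674% and 0.606% of those of the mature libraries. The groups did not overlap, as was the case for the shares of 36 of the 43 lists. Prss34 encodes mouse mast cell protease 11, a tryptase-like enzyme of basophils, and measured 17108, 21227 and 20606 CPM in the immature libraries and 918, 762 and 684 CPM in the mature libraries (25.2-fold higher in immature; log2 fold change 4.64 ± 0.24, adjusted p = 8.26e-10). Mcpt8, the basophil-specific mast cell protease 8, was the second most abundant of them in the immature libraries at 16424, 15574 and 16382 CPM. It was the most abundant in the mature libraries at 5775, 4686 and 4510 CPM (3.19-fold higher in immature; log2 fold change 1.69 ± 0.24, adjusted p = 3.2e-05). Cpa3, carboxypeptidase A3, measured 3223, 3228 and 2759 CPM in the immature libraries and 1844, 1322 and 1314 CPM in the mature libraries (2.03-fold; log2 fold change 1.04 ± 0.19, adjusted p = 0.000324). The groups did not overlap for any of the 3, and Prss34 went from the highest of them in immature cells to the lowest in mature cells. Of the 14 genes on the list 4 were tested, Gzmb (granzyme B) being the 1 without a call. In the GRCm38 assembly Prss34 lies at chr17:25298394-25300165, plus strand, Mcpt8 at chr14:56082166-56085273, minus strand and Cpa3 at chr3:20215620-20242181, minus strand.

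Prss34 and Cpa3, the called granule protease genes whose windows held a GATA motif, are shown with the 120 bases before their start sites. GATA2 is a regulator of basophil granule genes, but Gata2 itself was called higher in mature cells. Its part in these differences was not tested. The RefSeq promoter table (GRCm38.p6, 300 bases a window) held the GATA motif AGATAA, searched on both strands, once in each, 31 and 46 bases before the start. The capitals mark this motif. The table held no window for Mcpt8, so its promoter was not searched.
Prss34 (chr17:25298274-25298393, plus strand): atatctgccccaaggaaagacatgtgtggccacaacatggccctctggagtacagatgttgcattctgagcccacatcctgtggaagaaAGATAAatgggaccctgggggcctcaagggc
Cpa3 (chr3:20242182-20242301, minus strand): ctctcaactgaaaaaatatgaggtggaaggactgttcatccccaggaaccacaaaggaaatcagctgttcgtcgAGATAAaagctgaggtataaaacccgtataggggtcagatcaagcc
The motif was present in the windows of 12.7% of the 27025 genes in the table and of 8.08% of the 8420 tested genes with a window, and a match is a description of the letters only.

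Genes of the azurophil granule, which promyelocytes make, and of eosinophil granules followed the same direction in part. Of the 6 tested on their list 3 were called higher in immature cells, 0 in mature cells, and 3 were not called. Up to 2 were called higher in mature cells under an alternative. Ctsg (cathepsin G) measured 1812, 2180 and 1786 CPM in the immature libraries and 185, 133 and 125 CPM in the mature libraries (13-fold; log2 fold change 3.70 ± 0.26, adjusted p = 1.54e-08). Mpo (myeloperoxidase) measured 730, 651 and 760 CPM in the immature libraries and 2.85, 1.09 and 0.451 CPM in the mature libraries (log2 fold change 8.82 ± 0.75, adjusted p = 1.14e-07), and its log2 fold change was 9.72 without mature library 1, which held most of the mature counts. Prg2, the major basic protein of eosinophils, stood at 23.6 against 3.24 CPM and was also called higher in immature cells (log2 fold change 2.85 ± 0.78, adjusted p = 0.00702). Prtn3 (proteinase 3) was not called with all 12 libraries (12.2 against 4.93 CPM, adjusted p = 0.129) but was without TSLP mature library 1 (0.00119) and with the IL-3 libraries alone (0.000935).

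Genes of the granule matrix and of its small mediators had calls in both directions. Srgn, the serglycin core that holds proteases and histamine in the granule, measured 1627, 2144 and 1836 CPM in the immature libraries and 2618, 2044 and 2121 CPM in the mature libraries and was not called (adjusted p = 0.356). Among 26 tested genes of glycosaminoglycan synthesis 8 were called higher in immature and 4 in mature cells. Papss2, which makes the sulfate donor, stood at 128 against 7.59 CPM (log2 fold change 4.07 ± 0.20, adjusted p = 6.62e-10). Chst15, which adds the sulfate of chondroitin sulfate E, stood at 110 against 283 CPM (log2 fold change -1.36 ± 0.21, adjusted p = 7.35e-05). Hdc, the histidine decarboxylase that makes histamine, measured 329, 439 and 461 CPM in the immature libraries and 926, 836 and 996 CPM in the mature libraries (log2 fold change -1.16 ± 0.17, adjusted p = 4.85e-05) and was higher in all 3 mature libraries. Slc18a2, the transporter that loads histamine into granules, was called in the opposite direction (log2 fold change 0.83 ± 0.28, adjusted p = 0.0224), but its libraries overlapped at 962, 561 and 368 CPM against 322, 352 and 386 CPM. Its adjusted p was 0.176 without immature library 1, 0.0755 without mature library 1 and 0.0534 without mature library 2. Of 17 tested genes of histamine and eicosanoid synthesis 3 were called higher in immature and 6 in mature cells. In the leukotriene pathway Alox5 (5-lipoxygenase) and Lta4h (leukotriene A4 hydrolase) were called higher in immature cells at 475 against 292 CPM and 106 against 55.8 CPM, and Alox5ap, the 5-lipoxygenase-activating protein, in mature cells at 898 against 1340 CPM (adjusted p = 0.0486, lost under 17 of 21 alternatives). Ptgs2, the inducible cyclo-oxygenase, rose from 11.6, 13.7 and 14.6 CPM in immature to 83, 87.8 and 85.7 CPM in mature libraries (log2 fold change -2.67 ± 0.35, adjusted p = 1.14e-05).

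Genes that move and release granules were mostly higher in mature BMBAs. In the exocytosis list 4 of the 44 members tested were called higher in immature and 21 higher in mature BMBAs (median log2 fold change -0.48). The counts were 4 and 12 without immature library 2 and, when scaled by library totals without Rn45s, 6 and 13. Lyst, which controls granule size, measured 129, 109 and 103 CPM in the immature libraries and 318, 494 and 480 CPM in the mature libraries (log2 fold change -1.92 ± 0.32, adjusted p = 0.000149). Snap23, the plasma membrane SNARE of degranulation, stood at 95.4 against 212 CPM, and Rab27a, which tethers granules, had a log2 fold change of -0.73 ± 0.16. Sytl3, a binding partner of Rab27a, measured 20.9, 28.6 and 28.5 CPM against 200, 186 and 190 CPM, and Cplx2, a clamp on SNARE assembly, stood at 7.65 against 46.4 CPM (log2 fold change -2.62 ± 0.28, adjusted p = 1.28e-06). Rab27b was 1 of the 4 exceptions and was called higher in immature cells (41.4 against 17 CPM; log2 fold change 1.27 ± 0.27, adjusted p = 0.00128). Cd63, the granule membrane protein used as a degranulation marker, measured 1678 ± 140 CPM in immature and 1428 ± 61.9 CPM in mature cells and was not called.

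Lysosomal genes that were called mostly rose with maturation. Of 63 tested hydrolases and membrane proteins 23 were called higher in mature and 3 in immature BMBAs (median log2 fold change -0.50). Ctsd (cathepsin D), in mature cells the most abundant of the hydrolases named here, measured 397, 410 and 565 CPM in the immature libraries and 2736, 2294 and 2180 CPM in the mature libraries (5.25-fold; log2 fold change -2.39 ± 0.21, adjusted p = 1.27e-07). Man2b1 (lysosomal alpha-mannosidase) stood at 532 ± 51.8 CPM in immature and 1113 ± 143 CPM in mature cells (log2 fold change -1.07 ± 0.17, adjusted p = 7.74e-05). Sgsh (sulfamidase), which degrades heparan sulfate, stood at 8.51 against 45.5 CPM. Arsb, the sulfatase of dermatan and chondroitin sulfate, was an exception at 591, 578 and 490 CPM in the immature libraries and 67, 71.8 and 74 CPM in the mature libraries (log2 fold change 2.96 ± 0.18, adjusted p = 3.49e-09). Lamp1 (201 against 156 CPM) and Npc2 (919 against 1511 CPM) were not called (adjusted p = 0.0748 and 0.0509), though each was under 7 and 5 of 21 alternatives. Of 18 subunits and accessory proteins of the vacuolar ATPase, which acidifies lysosomes and granules, 6 were called higher in mature cells and 0 in immature cells, led by Atp6v0b (105 against 268 CPM) and Atp6v1b2 (122 against 253 CPM). Without immature library 1, immature library 2 or mature library 1 there were 3 such calls.

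Promoters of lysosomal genes often hold the CLEAR motif TCACGTGA, the site of TFEB and TFE3. It was found in 8 of 56 lysosomal genes with a window (14.3%), against 1.12% of all genes in the table and 2.42% of the 8420 tested genes with a window. Among genes called higher in mature cells the share was 2.46%, close to that of the tested genes. The E-box CACGTG that it contains was in 32.1% of the lysosomal genes, against 8.09%, 12.1% and 11.8% in that order. The 4 of these 8 genes that were called, all higher in mature cells, are shown as 30 bases that begin 5 bases before the first match, with the motif in capitals.
Ctsd (chr7:142387902-142387931, minus strand): gcgtcTCACGTGAcccgttgagggccaaac
Ctsa (chr2:164833755-164833784, plus strand): aactgTCACGTGAtgcagatgcTCACGTGA
Gla (chrX:134601209-134601238, minus strand): attgaTCACGTGAgcatctacgtcatgtga
Cln3 (chr7:126583334-126583363, minus strand): tactgTCACGTGAcccccaacctgctcgtc
Their log2 fold changes were -2.39 ± 0.21 for Ctsd, -0.81 ± 0.20 for Ctsa, -1.31 ± 0.19 for Gla and -1.66 ± 0.17 for Cln3. Of the others 3 were not called and 1 was not tested. The 3 vacuolar ATPase genes that held the motif were not called either. Tfeb and Tfe3 themselves measured 10.3 against 24.7 CPM and 18.6 against 40.3 CPM and were both called higher in mature BMBAs (log2 fold change -1.24 ± 0.25, adjusted p = 0.00086 and log2 fold change -1.11 ± 0.22, adjusted p = 0.000678). The part of these factors in the lysosomal calls was not tested.

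Autophagy genes formed a similar picture. In the list of autophagy and mTORC1 regulation 2 of the 63 members tested were called higher in immature and 26 higher in mature BMBAs (median log2 fold change -0.41), the latter 15 when scaled by library totals without Rn45s. Map1lc3b and Gabarap, which coat the forming autophagosome, stood at 138 against 407 CPM and 143 against 362 CPM. Sqstm1, the cargo receptor p62, rose from 117, 125 and 125 CPM to 315, 290 and 274 CPM (log2 fold change -1.26 ± 0.16, adjusted p = 8.04e-06). The mTORC1 inhibitors Ddit4 and Sesn2 had log2 fold changes of -2.41 ± 0.23 and -2.35 ± 0.24, at 55.9 against 297 CPM and 11.7 against 59 CPM. The libraries of the groups did not overlap for any of these 5 genes.

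Sugar metabolism had calls in both directions. In glycolysis 9 of the 25 members tested were called higher in immature and 8 higher in mature BMBAs (median log2 fold change 0.07). Members of sugar uptake and first phosphorylation were higher in mature cells. Slc2a3, a glucose transporter, measured 175, 159 and 153 CPM in the immature libraries and 386, 456 and 373 CPM in the mature libraries (log2 fold change -1.32 ± 0.18, adjusted p = 1.5e-05), and the hexokinases Hk3 and Hk2 stood at 233 against 540 CPM and 139 against 240 CPM. Several enzymes of the later steps were higher in immature cells. Pgk1, which makes ATP in glycolysis, measured 438, 386 and 397 CPM in the immature libraries and 191, 177 and 149 CPM in the mature libraries (log2 fold change 1.24 ± 0.17, adjusted p = 1.52e-05). Gapdh stood at 1036 against 681 CPM (log2 fold change 0.60 ± 0.20, adjusted p = 0.0214, and 0.0793 without mature library 3). Pkm and Eno1 were not called, nor was Ldha (adjusted p = 0.0619), which was called higher in immature cells under 13 of 21 alternatives. The balance of calls on this list turned with the replicate block and when immature library 1, mature library 1 or mature library 3 was left out.

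Genes of the tricarboxylic acid cycle and nuclear-encoded genes of the respiratory chain had more calls higher in immature than in mature cells. In the cycle 18 of the 36 members tested were called higher in immature and 2 higher in mature BMBAs (median log2 fold change 0.51), against 12 and 1 without mature library 3. Idh3a, a subunit of the NAD-dependent isocitrate dehydrogenase, measured 98, 56.3 and 55.3 CPM in the immature libraries and 16.7, 10.2 and 8.12 CPM in the mature libraries (log2 fold change 2.55 ± 0.28, adjusted p = 1.71e-06). Idh2, the NADP-dependent enzyme, stood at 22.6 against 2.22 CPM (3.27 ± 0.35 on the log2 scale). Mpc2, a subunit of the pyruvate carrier, went the other way at 170 against 474 CPM (log2 fold change -1.48 ± 0.27, adjusted p = 0.000324). Nuclear-encoded subunits of oxidative phosphorylation held 0.976%, 0.95% and 0.837% of the counts of the immature libraries and 0.58%, 0.533% and 0.502% of those of the mature libraries. Of the 73 tested 30 were called higher in immature cells and 1, Cox7a2l, in mature cells. The former count was 18 without immature library 2, 18 without mature library 2, 17 without mature library 3, 46 with no filter and 54 with the IL-3 libraries alone. In the first 3 of these fits 2199 of 11040, 2178 of 11173 and 2233 of 11156 tested genes were called higher in immature cells. Calls of list members higher in mature cells stayed at 0 or 1 under every alternative. Cox7a2l lost its call when any IL-3 library except mature library 1 was left out (adjusted p from 0.0543 to 0.0933). Cycs (cytochrome c) measured 131, 139 and 91.4 CPM in the immature libraries and 40.6, 37.9 and 26.2 CPM in the mature libraries (log2 fold change 1.78 ± 0.24, adjusted p = 1.89e-05). Atp5a1, the alpha subunit of ATP synthase, measured 536 ± 67.3 CPM in immature and 237 ± 15.5 CPM in mature cells (log2 fold change 1.18 ± 0.16, adjusted p = 2.19e-05). Subunits encoded by mitochondrial DNA were not on this list. Mitochondrial transcripts as a whole overlapped between the groups, at 2.57% to 3.69% of the counts in immature and 2.43% to 2.88% in mature libraries. Mitochondrial ribosome, import and biogenesis genes had 40 of 73 called higher in immature and 0 in mature cells (median log2 fold change 0.89), with the chaperone Hspd1 at 196 against 95 CPM and Tfam, which packages mitochondrial DNA, at 26.1 against 9.72 CPM. The motif GCATGCGC of NRF1 was in the windows of 10 of 62 respiratory genes (16.1%) against 3.05% of all genes and 6.38% of the tested genes with a window.

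Nucleotide synthesis was among the lists with the largest shift. Of 41 tested genes 31 were called higher in immature and 1 in mature cells (median log2 fold change 1.70). Phgdh, which opens serine synthesis and so feeds one-carbon units, measured 88.8, 85.4 and 85.4 CPM in the immature libraries and 2.49, 1.09 and 1.8 CPM in the mature libraries (47.9-fold; log2 fold change 5.55 ± 0.43, adjusted p = 4.28e-08). Shmt2, which releases them in mitochondria, stood at 26.1 against 1.05 CPM (4.61 ± 0.36 on the log2 scale). Rrm1, the large subunit of ribonucleotide reductase, measured 113, 112 and 134 CPM in the immature libraries and 3.21, 4.01 and 6.76 CPM in the mature libraries (log2 fold change 4.70 ± 0.28, adjusted p = 2.59e-09). The purine enzymes Paics and Gart and thymidylate synthase Tyms had log2 fold changes of 1.85, 2.95 and 1.52. Rrm2b, the reductase subunit used outside S phase, was the single member called higher in mature cells (51.4 against 98 CPM). In the pentose phosphate pathway, which supplies ribose, 6 of 10 genes were called higher in immature cells, Tkt (transketolase) at 229 against 89.3 CPM and Prps1 at 21.5 against 4.17 CPM, and 2 in mature cells. The 2 were G6pdx, not called without immature library 1 or 2 or any 1 mature library (adjusted p from 0.0515 to 0.101), and Taldo1, not called without library 1 or 2 of either group (0.0519 to 0.1).

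**Figure D2:**
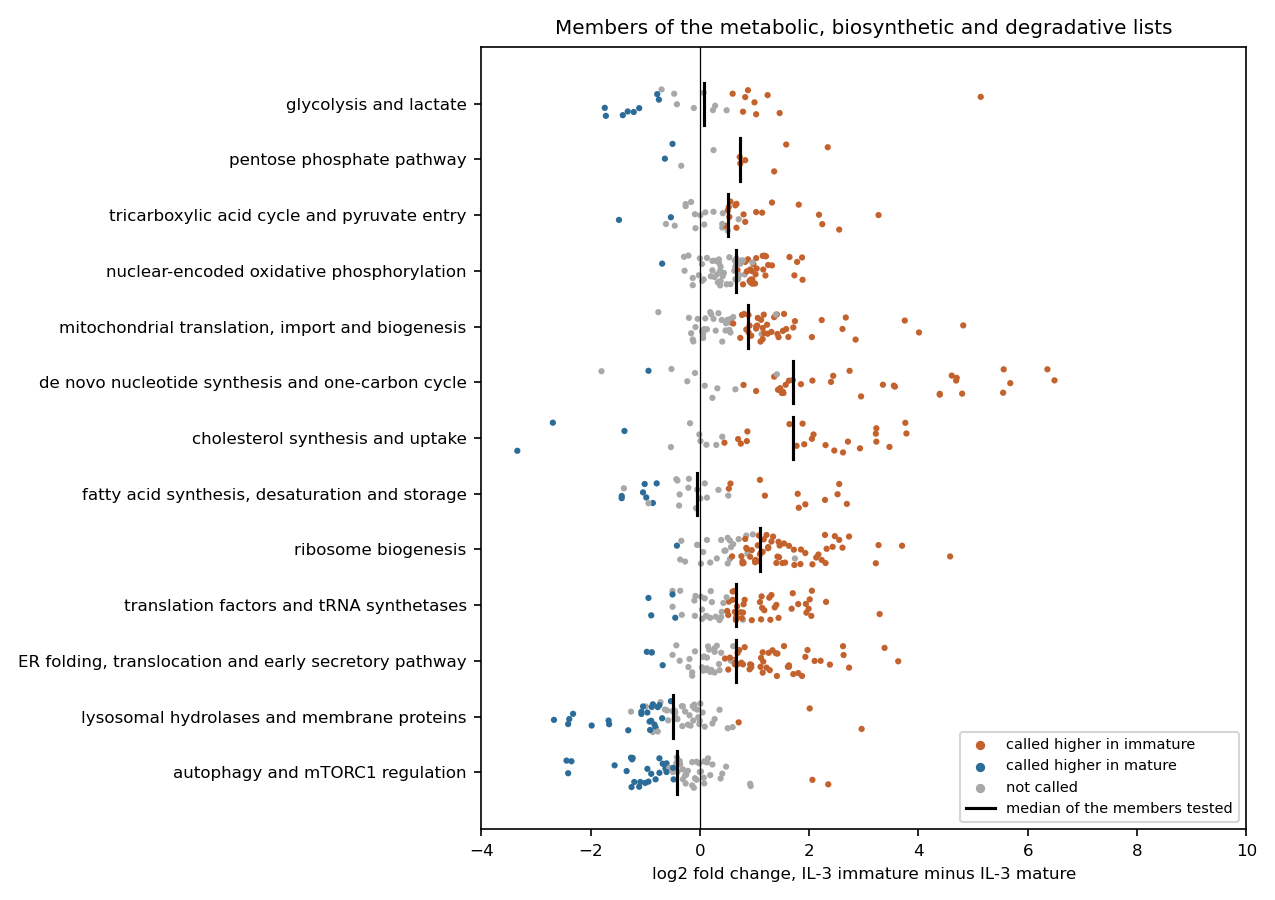
Log2 fold change (immature minus mature) of every tested member of 13 metabolic, biosynthetic and degradative lists, one point a gene, coloured by its call, with the list median as a black bar. Nucleotide and cholesterol synthesis have the highest medians (1.70 and 1.71), and lysosome and autophagy lists lie to the left of 0 (-0.50 and -0.41).

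Genes of sterol synthesis and of sterol export were called in opposite directions. Of 32 tested cholesterol genes 22 were called higher in immature and 3 in mature cells (median log2 fold change 1.71). Hmgcs1, which makes HMG-CoA, measured 205, 142 and 122 CPM in the immature libraries and 32.8, 38.2 and 39.7 CPM in the mature libraries (log2 fold change 2.08 ± 0.20, adjusted p = 4.65e-07). Fdps (farnesyl diphosphate synthase) stood at 145 against 10.6 CPM, Sqle (squalene epoxidase) at 42.1 against 4.35 CPM and Cyp51 at 110 against 22.2 CPM. The 3 genes called higher in mature cells are known to lower free cholesterol in cells. They were Abcg1, a sterol exporter, at 9.22, 4.86 and 5.3 CPM in the immature libraries and 58.1, 65.6 and 65.8 CPM in the mature libraries (log2 fold change -3.34 ± 0.25, adjusted p = 2.84e-08), Mylip, a ubiquitin ligase that limits sterol uptake, at 7.71 against 50.6 CPM, and Soat1, which esterifies cholesterol, at 12 against 30.5 CPM. Fatty acid genes were mixed. Fasn (fatty acid synthase), Acaca and Scd2 (stearoyl-CoA desaturase 2) were called higher in immature cells with log2 fold changes of 2.69 ± 0.21, 2.29 ± 0.26 and 2.52 ± 0.18, and the lipid droplet genes Plin2 and Dgat1 in mature cells with -1.43 ± 0.20 and -1.04 ± 0.17.

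Iron genes were called in both directions. Tfrc, the transferrin receptor, measured 50.5, 53.4 and 54.3 CPM in the immature libraries and 2.85, 2.91 and 3.16 CPM in the mature libraries (17.9-fold higher in immature; log2 fold change 4.14 ± 0.22, adjusted p = 1.3e-09). The ferritin chains, which store iron, went the other way. Fth1 rose from 1136, 514 and 720 CPM in immature to 2681, 2182 and 1780 CPM in mature libraries and Ftl1 from 898, 857 and 918 CPM to 3680, 3450 and 2818 CPM, and Hmox1 (haem oxygenase 1) stood at 19.6 against 72.7 CPM. The lipid peroxide reductase Gpx4 was higher in mature cells (229 against 575 CPM; log2 fold change -1.33 ± 0.25, adjusted p = 0.000411). Over all 48 tested genes of the list 8 were called higher in immature and 11 in mature cells, a balance that turned or tied under 8 of 21 alternatives, among them library totals without Rn45s (15 and 9), the IL-3 libraries alone (15 and 10) and leaving out TSLP mature library 1 (13 and 12).

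Genes that build ribosomes and charge tRNAs were mostly higher in immature cells, whereas the count of ribosomal proteins called varied with the libraries fitted. Of 81 tested ribosome biogenesis genes 56 were called higher in immature and 1 (Ubtf) in mature cells, the latter lost when any IL-3 library except mature library 1 was left out (adjusted p from 0.0595 to 0.112). Of 84 tested ribosomal proteins 12 were called higher in immature and 2 in mature cells, against 9 and 0 without mature library 2 or 3, 20 and 4 without TSLP mature library 1, 19 and 4 without TSLP mature library 3, 19 and 0 with library totals without Rn45s, 27 and 4 with no filter and 34 and 5 with the IL-3 libraries alone. Nop58, a core protein of the box C/D RNA particles, measured 187, 100 and 72.8 CPM in the immature libraries and 18.9, 25.1 and 16.7 CPM in the mature libraries (log2 fold change 2.55 ± 0.29, adjusted p = 2.58e-06), and the nucleolar proteins Ncl and Npm1 stood at 343 against 170 CPM and 232 against 111 CPM. Among translation factors and tRNA synthetases 40 of the 67 members tested were called higher in immature and 4 higher in mature BMBAs (median log2 fold change 0.66). Iars, the isoleucyl-tRNA synthetase, measured 103, 42 and 51.3 CPM against 4.27, 8.74 and 6.76 CPM, immature against mature, with Aars at 28.9 against 5.83 CPM and Eif4e, the cap-binding protein, at 51.7 against 14.9 CPM. Eef1a1, among the most abundant messages of both groups, did not differ beyond its spread (3097 ± 111 CPM in immature and 3021 ± 477 CPM in mature cells, adjusted p = 0.885).

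The ER list held 2.24%, 1.82% and 1.78% of the counts of the immature libraries and 0.797%, 0.798% and 0.716% of those of the mature libraries. Of 79 tested members 46 were called higher in immature and 3 in mature cells. The lectin chaperone Calr measured 1220, 1293 and 1270 CPM in the immature libraries and 211, 185 and 174 CPM in the mature libraries (log2 fold change 2.73 ± 0.19, adjusted p = 1.24e-08). The chaperone Hspa5 (BiP) measured 1099 ± 97.3 CPM in immature and 315 ± 26.5 CPM in mature cells, and its relative Hsp90b1 2520 ± 551 CPM in immature and 1041 ± 80.5 CPM in mature cells. Sdf2l1, a partner of Hspa5, was 10.1-fold higher in immature cells (log2 fold change 3.38 ± 0.26, adjusted p = 4.58e-08), and the disulfide isomerases Pdia3 and Pdia6 stood at 1209 against 396 CPM and 394 against 63.8 CPM. The 3 members higher in mature cells were Dnajb9, Ddit3 and Mcfd2, the last not called without immature library 2 (adjusted p = 0.0511), immature library 3 (0.0909) or mature library 2 (0.0536). Xbp1 and Atf4, transcription factors of the unfolded protein response, were not called (150 against 138 CPM and 285 against 314 CPM). Of 17 tested amino acid transporters 5 were called higher in immature and 8 in mature cells. There were 5 such calls in each direction with library totals without Rn45s, with no filter and without immature library 1. The arginine and lysine transporter Slc7a1 stood at 48.9 against 10.9 CPM and the glycine transporter Slc6a9 at 22.5 against 122 CPM.

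**Figure D3:**
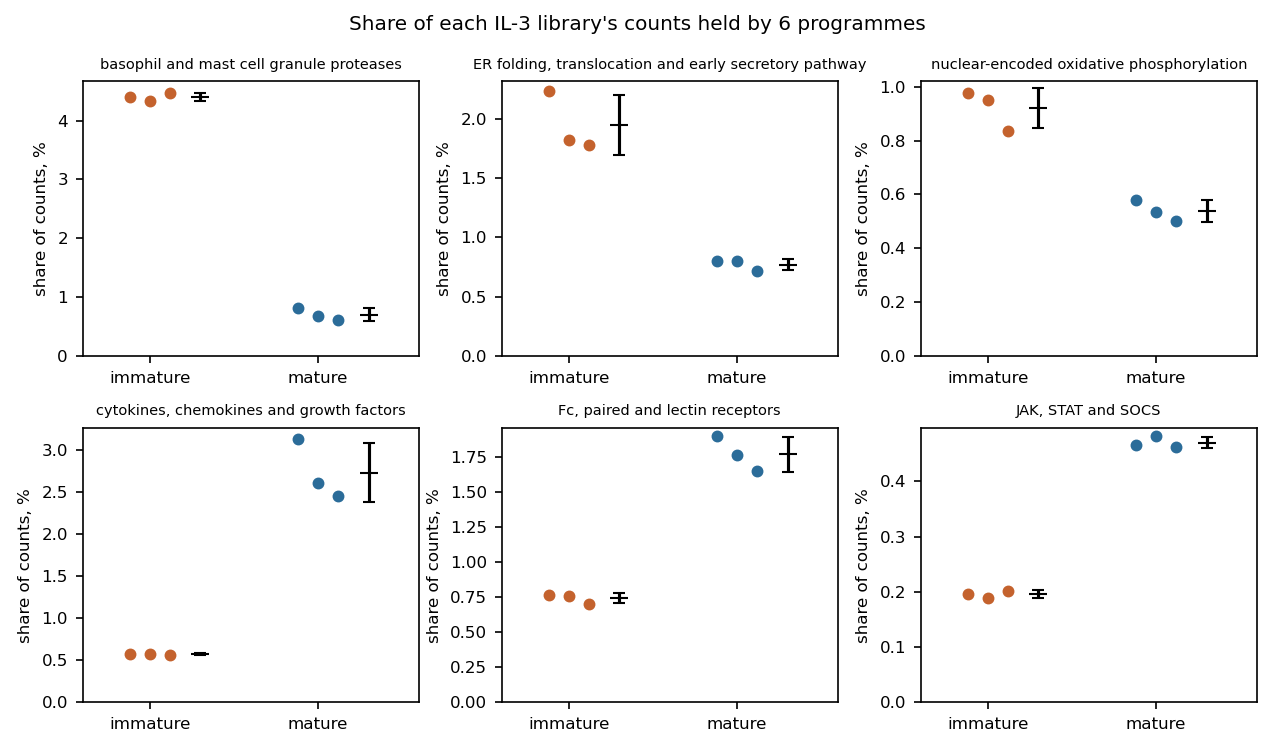
Share of all counts of each IL-3 library held by 6 programmes, in percent, with one point a library, immature (orange) and mature (blue), and the mean ± SD (n = 3) as a black bar beside the points. In every panel the 3 immature libraries lie apart from the 3 mature libraries, as they do for 36 of the 43 lists.

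Genes of nuclear structure were mostly higher in immature cells, as were those of the cell cycle. Of 73 tested genes of lamina, envelope, pore and chromatin 44 were called higher in immature and 9 in mature cells, beside 88 and 0 of the 93 tested S and G2/M phase genes. Hmgn2, a nucleosome-binding protein, measured 4238, 2460 and 2155 CPM in the immature libraries and 262, 219 and 212 CPM in the mature libraries (log2 fold change 3.67 ± 0.34, adjusted p = 2.72e-07). Tmpo, which encodes the lamina-associated LAP2 proteins, stood at 177 ± 24.1 CPM in immature and 7.75 ± 1.89 CPM in mature cells (log2 fold change 4.53 ± 0.22, adjusted p = 6.62e-10), the pore protein Nup210 at 55.7 against 2.29 CPM and Lmnb1 (lamin B1) at 183 against 32.2 CPM. Lmna, which encodes A-type lamins, was opposite at 5.82, 6 and 12.6 CPM in the immature libraries and 31.7, 30.2 and 37 CPM in the mature libraries (log2 fold change -1.99 ± 0.27, adjusted p = 1.84e-05), as was the linker histone Hist1h1c (68.9 against 146 CPM). Dnmt1 and Uhrf1, which copy DNA methylation, stood at 112 against 11.2 CPM and 140 against 1.92 CPM.

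The E2F motifs TTTGGCGC and TTTCGCGC were found in 11.8% of 76 S and G2/M phase genes and in 5.56% of 72 nuclear genes with a window, against 0.929% of all genes, 2.05% of the tested genes and 3.7% of the genes called higher in immature cells with a window. The CCAAT box was in 73.7% and 52.8% against 41.1%, 43.8% and 49.6%. The 3 nuclear genes with an E2F match before the start site are shown over 30 bases with the motif, on either strand, in capitals.
Dnmt1 (chr9:20952818-20952847, minus strand): cgcgcGCGCGAAAaagccggggtctcgttc
Uhrf1 (chr17:56304123-56304152, plus strand): tcgggTTTCGCGCgcccaggcgtctccgag
Cbx3 (chr6:51470443-51470472, plus strand): cccgcTTTGGCGCgctccgagacgcagaga
Their log2 fold changes were 3.31 ± 0.19, 6.15 ± 0.40 and 1.55 ± 0.23, in that order.

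Signalling genes were higher in mature BMBAs in nearly every list, beginning with the IgE receptor. The ligand-binding chain Fcer1a was used in the sort. Ms4a2, the beta chain, was higher in immature cells at 1194, 1285 and 1054 CPM in the immature libraries and 836, 703 and 667 CPM in the mature libraries (log2 fold change 0.68 ± 0.17, adjusted p = 0.00365). Fcer1g, the signalling gamma chain that other receptors share, was higher in mature cells at 508, 778 and 735 CPM in the immature libraries and 1176, 1092 and 1096 CPM in the mature libraries (log2 fold change -0.73 ± 0.29, adjusted p = 0.0467). The call for Fcer1g was lost when any 1 of the 6 IL-3 libraries was left out (adjusted p from 0.088 to 0.191). Behind the receptor 29 of the 47 tested members of the list were called higher in mature and 3 in immature cells. The kinases Lyn and Syk, which start the cascade, stood at 49.8 against 79 CPM and 59.8 against 102 CPM, and the adaptor Lat2 at 659, 470 and 461 CPM against 1494, 1641 and 1415 CPM (log2 fold change -1.52 ± 0.20, adjusted p = 1.13e-05). Some negative regulators were also higher in mature cells. Pag1, which recruits the inhibitory kinase Csk, measured 22.3, 29.1 and 27.5 CPM in the immature libraries and 159, 208 and 275 CPM in the mature libraries (log2 fold change -3.01 ± 0.29, adjusted p = 4.1e-07). Inpp4b, a phosphoinositide phosphatase, measured 89.4 ± 9.54 CPM in immature and 436 ± 39.3 CPM in mature cells. Cbl, a ubiquitin ligase that ends receptor signalling, was an exception and was higher in immature cells (33.4 against 13.3 CPM; log2 fold change 1.34 ± 0.31, adjusted p = 0.00206).

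The IL-3 receptor and the feedback inhibitors of its pathway were examined next. Il3ra, the specific alpha chain, measured 280, 140 and 248 CPM in the immature libraries and 183, 178 and 185 CPM in the mature libraries and was not called (adjusted p = 0.337). The common beta chain Csf2rb measured 1864, 1702 and 1707 CPM in the immature libraries and 5793, 5961 and 6160 CPM in the mature libraries (log2 fold change -1.76 ± 0.20, adjusted p = 2.42e-06). Csf2rb2, the IL-3-specific beta chain of the mouse, stood at 393 ± 77 CPM in immature and 1583 ± 101 CPM in mature cells (log2 fold change -2.01 ± 0.19, adjusted p = 4.46e-07). Of 31 tested genes of the JAK, STAT and SOCS list 17 were called higher in mature and 0 in immature cells, and the list held 0.197%, 0.189% and 0.202% of the counts of the immature libraries and 0.466%, 0.482% and 0.463% of those of the mature libraries. Socs3 measured 5.34, 5.71 and 5.63 CPM in the immature libraries and 258, 248 and 281 CPM in the mature libraries (46.6-fold; log2 fold change -5.54 ± 0.21, adjusted p = 7.31e-11). Socs1 and Cish, which also block cytokine receptors, stood at 5.63 against 67.3 CPM and 10.8 against 91.5 CPM, and no immature library reached the level of a mature one for any of the 3. Pim1, a survival kinase induced by STAT5, stood at 187 ± 21 CPM in immature and 756 ± 95.4 CPM in mature cells (log2 fold change -2.01 ± 0.21, adjusted p = 1.15e-06). Osm (oncostatin M), also a STAT5 target, measured 115, 162 and 186 CPM against 1358, 1230 and 1253 CPM (log2 fold change -3.05 ± 0.21, adjusted p = 1.13e-08). The kinase Jak2 and the factor Stat5b were called with smaller differences of -1.16 ± 0.22 and -0.77 ± 0.18, and Stat5a was not called (38.9 against 46.6 CPM).

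Socs3 and Cish are also shown for the STAT motif TTCNNNGAA, which was found on either strand in 9.55% of all genes of the promoter table. They were the list members with a call that held it, Cish as a close pair that begins at a RefSeq start, and 30 bases of each are given with the matches in capitals.
Socs3 (chr11:117969496-117969525, minus strand): cagccTTCTTAGAAgggaggggggggaaag
Cish (chr9:107296654-107296683, plus strand): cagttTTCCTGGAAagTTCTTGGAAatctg
Too few members of this list had a window (71.9%) for a share to be given. The Socs3 gene lies at chr11:117966079-117970047, minus strand and Cish at chr9:107296026-107302784, plus strand of GRCm38.

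In the MAP kinase list 4 of the 68 members tested were called higher in immature and 38 higher in mature BMBAs (median log2 fold change -0.81). The phosphatases Dusp6 and Dusp5, which inactivate ERK, were both higher in mature cells. Dusp6 measured 87.3, 104 and 85.1 CPM in the immature libraries and 462, 417 and 416 CPM in the mature libraries (log2 fold change -2.23 ± 0.16, adjusted p = 2.46e-08). Dusp5 stood at 13.4 against 74.5 CPM (log2 fold change -2.44 ± 0.33, adjusted p = 1.75e-05). The early genes Ier3, Egr1 and Junb stood at 562 against 2537 CPM, 1444 against 3145 CPM and 115 against 547 CPM, whereas Jun was level at 312 against 298 CPM (adjusted p = 0.852). Of 52 tested NF-kB and adaptor genes 22 were called higher in mature and 3 in immature cells (14 and 5 when scaled by library totals without Rn45s), with the inhibitor Tnfaip3 at 19 against 45.7 CPM and the subunit Nfkb1 not called (115 against 111 CPM). Ripk3, the kinase of necroptosis, was opposite at 44.7 against 5.54 CPM (log2 fold change 2.97 ± 0.35, adjusted p = 4.52e-06). The G protein regulators Rgs1 and Rgs2, which shorten chemoattractant signals, stood at 134 against 532 CPM and 189 against 635 CPM. Of 49 tested calcium and ion channel genes 8 (16.3%) were called higher in immature and 14 (28.6%) in mature cells. These shares lay near those over all genes tested (22.1% and 24.1%). The counts became 10 and 10 when scaled by library totals without Rn45s.

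Actin and its regulators took a larger share of the mature libraries. In the list of small GTPases, actin and migration 3 of the 78 members tested were called higher in immature and 38 higher in mature BMBAs (median log2 fold change -0.54), the latter 25 when scaled by library totals without Rn45s. Actb, the main cytoplasmic actin, measured 6234, 5338 and 5572 CPM in the immature libraries and 12339, 11701 and 9647 CPM in the mature libraries, and Actg1 stood at 1412 ± 187 CPM in immature and 4134 ± 568 CPM in mature cells. Capg, which caps actin filaments, measured 33.5, 30 and 30.8 CPM against 294, 251 and 238 CPM (log2 fold change -3.06 ± 0.21, adjusted p = 1.53e-08). Tiam1, which activates Rac, stood at 114 against 442 CPM (log2 fold change -1.95 ± 0.23, adjusted p = 3.2e-06). The remaining 37 members were not called.

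Among the 43 lists, receptors for chemoattractants, lipids and purines had the highest fraction of members called higher in mature cells. Of 44 tested 35 were called higher in mature and 3 in immature cells (median log2 fold change -1.43). C3ar1 and C5ar1, the receptors for complement C3a and C5a, were among them. C3ar1 measured 48, 43.1 and 42.4 CPM in the immature libraries and 524, 564 and 504 CPM in the mature libraries (log2 fold change -3.58 ± 0.19, adjusted p = 8.26e-10). C5ar1 stood at 3 ± 0.397 CPM in immature and 78.9 ± 6.15 CPM in mature cells (log2 fold change -4.69 ± 0.29, adjusted p = 3.14e-09). P2ry14, which senses UDP-glucose, measured 206 ± 55.3 CPM in immature and 1019 ± 166 CPM in mature cells, S1pr1, which directs egress to blood, 27.4 ± 4.37 CPM in immature and 103 ± 2.48 CPM in mature cells, and the prostaglandin E2 receptor Ptger3 78.8 ± 13.7 CPM in immature and 187 ± 23.3 CPM in mature cells. Cxcr4, the receptor for CXCL12 that keeps cells in bone marrow, was one of the 3 in the other direction at 99.9, 92.8 and 77.5 CPM in the immature libraries and 24.6, 22.2 and 12.2 CPM in the mature libraries (log2 fold change 2.18 ± 0.25, adjusted p = 2.72e-06). The calls in this list stand beside the higher neutrophil and monocyte markers of the mature libraries given above, whose part was not tested. Cxcr2, also counted as a neutrophil marker, stood at 89.3, 90.6 and 75.5 CPM against 1010, 913 and 948 CPM (log2 fold change -3.49 ± 0.17, adjusted p = 6.62e-10).

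Fc, paired and lectin receptors followed, with 44 of 59 tested called higher in mature and 2 in immature cells, and held 0.769%, 0.763% and 0.703% of the counts of the immature libraries and 1.9%, 1.77% and 1.65% of those of the mature libraries. Lilrb4a, an inhibitory receptor, was the most abundant at 570, 584 and 547 CPM in the immature libraries and 4050, 3569 and 3515 CPM in the mature libraries (log2 fold change -2.71 ± 0.18, adjusted p = 7.87e-09). Pirb, another inhibitory receptor of this family, measured 9.7, 12.3 and 10.9 CPM against 218, 184 and 158 CPM (log2 fold change -4.07 ± 0.24, adjusted p = 2.52e-09). The inhibitory CD200 receptor Cd200r1 and the lectin Cd69 stood at 142 against 255 CPM and 115 against 565 CPM. The adaptor Tyrobp (DAP12), which activating members use, rose as well, from 717, 1050 and 834 CPM to 2696, 2536 and 2746 CPM (log2 fold change -1.62 ± 0.32, adjusted p = 0.000677). The 2 called higher in immature cells were the inhibitory receptors Lair1 (82 against 23.2 CPM) and Clec12a (261 against 6.26 CPM; log2 fold change 5.33 ± 0.50, adjusted p = 3.23e-07), the latter with a log2 fold change of 5.94 without mature library 1.

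Among cytokine receptors 19 of 42 tested were called higher in mature and 2 in immature cells. Il7r, which pairs with Crlf2 to form the TSLP receptor, measured 10.7, 9.14 and 4.64 CPM in the immature libraries and 263, 259 and 232 CPM in the mature libraries (31.9-fold; log2 fold change -4.96 ± 0.25, adjusted p = 6.62e-10). Crlf2 did not differ beyond its spread (73 ± 9.26 CPM in immature and 80 ± 11.5 CPM in mature cells, adjusted p = 0.626). Il18r1, the IL-18 receptor, stood at 177 ± 20.4 CPM in immature and 591 ± 42.5 CPM in mature cells (log2 fold change -1.74 ± 0.18, adjusted p = 1.18e-06). Il1rl1, the IL-33 receptor, stood at 813 ± 116 CPM in immature and 1136 ± 179 CPM in mature cells without a call (adjusted p = 0.0653). Adhesion receptors had 25 of 46 tested called higher in mature and 6 in immature cells. Itgam (CD11b), an integrin chain that monocytes and neutrophils also carry, measured 165 ± 19.1 CPM in immature and 1384 ± 84.8 CPM in mature cells, whereas Itga4, which binds VCAM-1, stood at 62.2 against 26.2 CPM and was higher in immature cells (log2 fold change 1.24 ± 0.20, adjusted p = 9.17e-05). In antigen presentation 13 of 24 tested were called higher in mature and 1 in immature cells, with the class I gene H2-D1 at 246, 301 and 326 CPM against 1471, 1449 and 1448 CPM and H2-K1 at 221 against 509 CPM. Cd74, which chaperones class II, was low in both groups (19 against 56.6 CPM). Of 26 pattern recognition receptors tested 16 were called higher in mature and 2 in immature cells, Nlrp3 among the former at 30.7 against 131 CPM. These counts were 10 and 3 with the IL-3 libraries alone (20 tested), 10 and 1 in thinned libraries (21 tested) and 6 and 3 with a filter of 10 CPM in 3 libraries (15 tested).

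**Figure D4:**
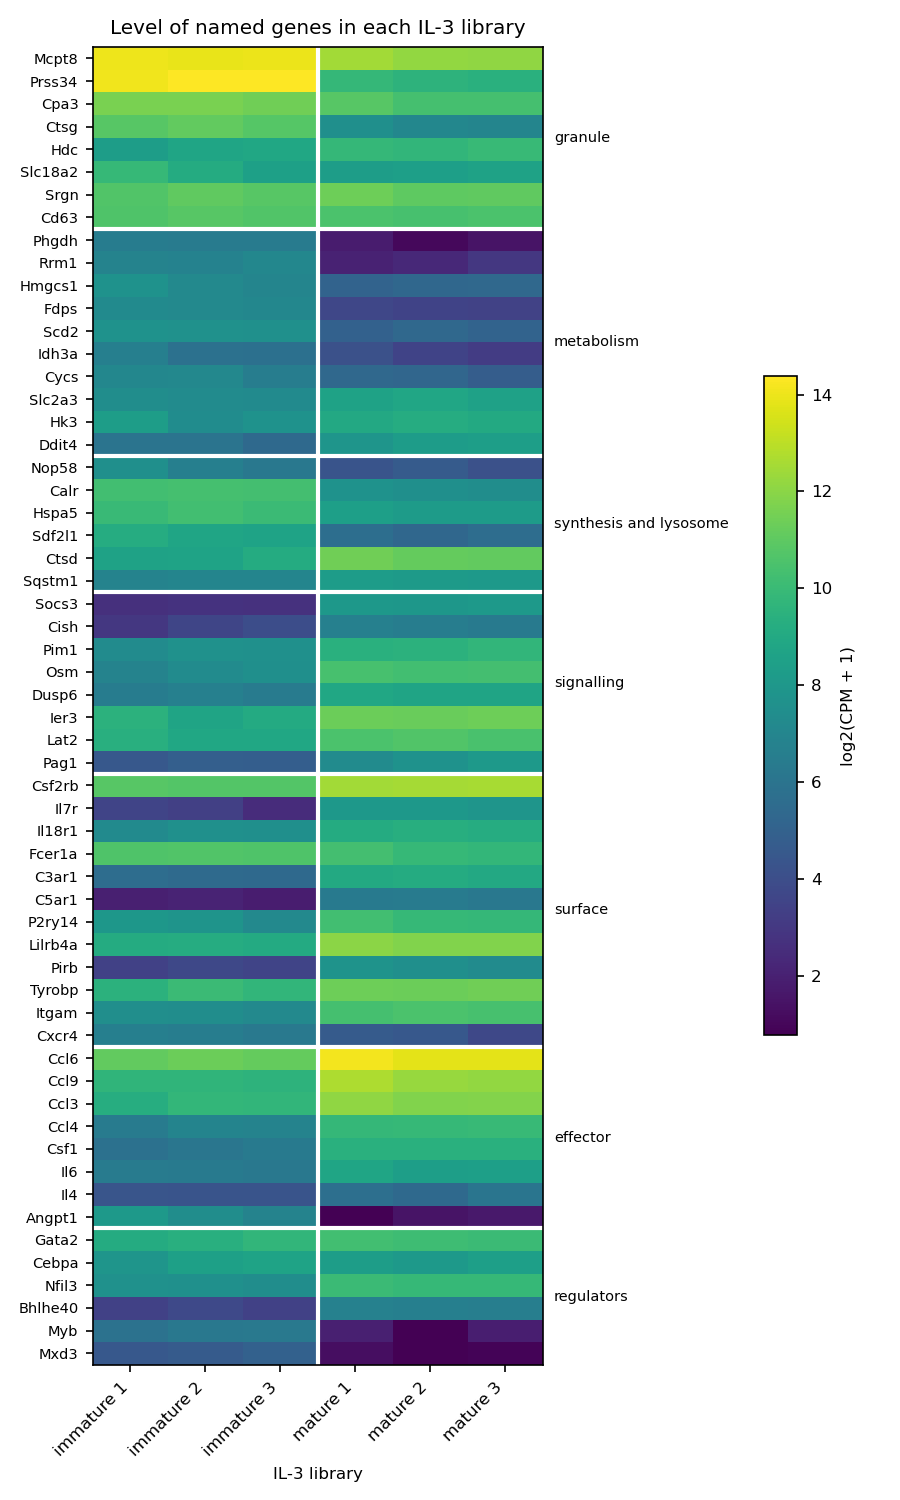
Level of 58 named genes, log2(CPM + 1), in each of the 6 IL-3 libraries, in blocks for granule, metabolism, synthesis and lysosome, signalling, surface, effector and regulator genes, with a white line between the immature (left) and mature (right) libraries. Libraries of one group resemble each other in nearly every row, with Slc18a2, Nop58 and Angpt1 among the rows that varied among the immature libraries.

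Cytokine and chemokine messages took up a larger share of the mature libraries. The list held 0.576%, 0.579% and 0.558% of the counts of the immature libraries and 3.13%, 2.61% and 2.45% of those of the mature libraries, with 19 of 27 tested members called higher in mature and 2 in immature cells. Most of it was 3 chemokines that attract myeloid cells. Ccl6 measured 2183, 2533 and 2286 CPM in the immature libraries and 17812, 14341 and 14511 CPM in the mature libraries (log2 fold change -2.74 ± 0.23, adjusted p = 1.2e-07), Ccl9 measured 812, 805 and 754 CPM against 6581, 4892 and 4631 CPM and Ccl3 608, 883 and 845 CPM against 4453, 3518 and 3729 CPM, immature against mature. Csf1, the macrophage growth factor, measured 55.8, 67.4 and 79.8 CPM in the immature libraries and 671, 674 and 689 CPM in the mature libraries (9.82-fold; log2 fold change -3.32 ± 0.19, adjusted p = 2.03e-09). Ccl4 stood at 105 against 947 CPM. Il4, the type 2 cytokine for which basophils are best known, measured 19.4, 18.9 and 18.5 CPM in the immature libraries and 52, 42.3 and 65.4 CPM in the mature libraries (log2 fold change -1.49 ± 0.29, adjusted p = 0.000506). Il6 measured 85.9, 81.4 and 73.5 CPM in the immature libraries and 436, 333 and 351 CPM in the mature libraries (log2 fold change -2.22 ± 0.23, adjusted p = 9.42e-07). Hgf (hepatocyte growth factor) stood at 278 ± 54.4 CPM in immature and 847 ± 29.6 CPM in mature cells. The 2 members called higher in immature cells were Angpt1 (angiopoietin 1) at 270, 170 and 116 CPM in the immature libraries and 0.712, 1.82 and 2.25 CPM in the mature libraries (log2 fold change 6.86 ± 0.38, adjusted p = 1.48e-09) and Mif at 53.9 against 19.4 CPM.

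Interferon-stimulated genes had 26 of 46 tested called higher in mature and 2 in immature cells. Ifitm1, a restriction factor that blocks virus entry, measured 655, 818 and 746 CPM in the immature libraries and 4634, 3824 and 3837 CPM in the mature libraries, and Samhd1, which hydrolyses dNTPs, stood at 50.5 against 300 CPM. Of 26 tested members of the BCL-2 family and caspases 5 were called higher in immature and 11 in mature cells. The counts were 8 and 8 when scaled by library totals without Rn45s. The anti-apoptotic Mcl1 stood at 201 ± 24 CPM in immature and 569 ± 19.4 CPM in mature cells and the pro-apoptotic Bax and Bcl2l11 at 104 against 221 CPM and 8.69 against 30.5 CPM, all higher in mature cells.

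Transcription factors were compared last. Gata2, required for basophils, measured 561, 644 and 850 CPM in the immature libraries and 1235, 1128 and 1052 CPM in the mature libraries (log2 fold change -0.73 ± 0.18, adjusted p = 0.00338). Cebpa and Runx1 were not called (332 against 317 CPM and 545 against 609 CPM). Of 77 tested factors 36 were called higher in mature and 11 in immature cells. Bhlhe40, a repressor of the circadian family, measured 9.7, 12.6 and 9.6 CPM in the immature libraries and 105, 97.3 and 94.7 CPM in the mature libraries (log2 fold change -3.20 ± 0.18, adjusted p = 1.64e-09). Nfil3, a basic leucine zipper factor, stood at 190 ± 16.1 CPM in immature and 968 ± 59.4 CPM in mature cells (log2 fold change -2.35 ± 0.19, adjusted p = 8.61e-08). Id2 and Spi1 stood at 51.8 against 244 CPM and 96.9 against 219 CPM. Myb, the progenitor factor, measured 57.7, 73.4 and 75.5 CPM in the immature libraries and 2.85, 0.729 and 2.71 CPM in the mature libraries (log2 fold change 5.04 ± 0.34, adjusted p = 9.46e-09). Among partners of MAX, the proliferation-linked Mxd3 stood at 25.9 against 1.02 CPM and the antagonist Mxd1 at 164 against 453 CPM, in opposite directions.

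The same 2 fractions were compared in TSLP cultures, to ask whether the step differs with the cytokine. The difference between the effects, IL-3 minus TSLP, was called for 455 genes, 4.19% of those tested, and 2731 genes were called between the TSLP fractions alone. Among the 455, 418 had the same sign in both cultures and were larger in IL-3, 3 were larger in TSLP and 34 had opposite signs. By list the counts were highest in S and G2/M phase (32 of 93), Fc and paired receptors (16 of 59), chemoattractant receptors (15 of 44), nucleotide synthesis (13 of 41) and nuclear genes (13 of 73), and they were 7 of 31 for JAK, STAT and SOCS. Among granule proteases 0 of 4 were called. The count was 267 without IL-3 immature library 2, 240 without IL-3 mature library 2, 284 without IL-3 mature library 3, 282 and 273 without TSLP immature libraries 1 and 2, and 723 without TSLP mature library 1. Socs3 stood at 32.9 ± 5.81 CPM in immature and 157 ± 8.94 CPM in mature cells in TSLP cultures, with a log2 fold change of -2.26 there, and the difference was -3.29 ± 0.27 (adjusted p = 4.49e-06). For Il7r the TSLP change was -1.31 and the difference -3.65 ± 0.31 (adjusted p = 8.35e-06). Ccl6 and Csf1 changed by -1.15 and -1.72 in TSLP, with differences of -1.58 ± 0.31 and -1.60 ± 0.25 (adjusted p = 0.00871 and 0.00203). On the immature side Phgdh changed by 2.82 in TSLP with a difference of 2.74 ± 0.58 (adjusted p = 0.0129), and Fdps by 1.87 with a difference of 1.88 ± 0.30 (adjusted p = 0.00204).

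**Figure D5:**
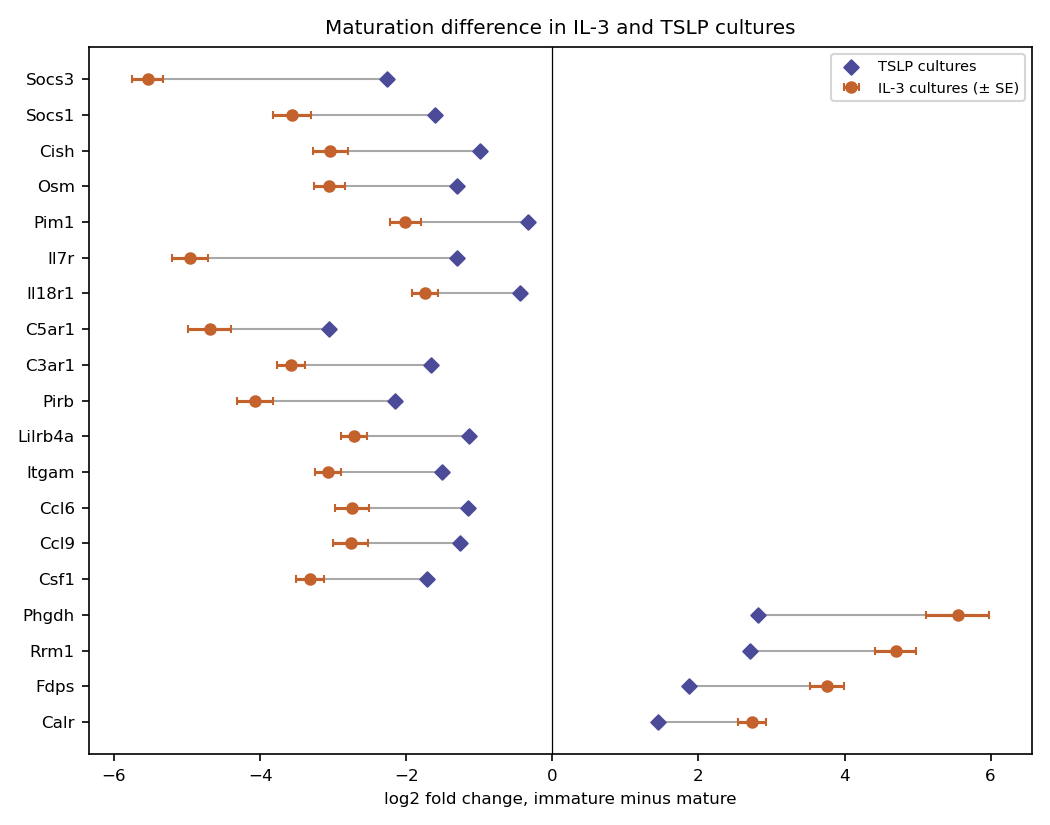
Log2 fold change, immature minus mature, of 19 named genes in IL-3 cultures (circles, ± SE) and TSLP cultures (diamonds), joined by a grey line. In each row the IL-3 value lies further from 0, and the difference between the effects was called at an adjusted p under 0.05. The genes shown are among the 66 flagged below, so the rows describe a chosen set.

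Some of the genes named above share sequence with others, and how reads with several matches were counted is not given in the sources used here. Of the 223 genes named, 30 shared at least 10% of their 50-base stretches with another gene or pseudogene of the GRCm38 annotation, so that their values are uncertain to that extent. Receptors among them were Itgam (66.3%, with Gm49368), Lilrb4a (46.7%), Pirb (34%), Csf2rb (12.3%) and Csf2rb2 (18.9%), which overlap each other, and H2-D1 (12.8%). Metabolic and synthetic genes among them were Phgdh (47.8%), Pgk1 (53.9%), Ftl1 (50.9%), Hspd1, Eef1a1, Gpx4, Acaca, Fdps, Eno1, Cycs, Pkm, Gapdh, Npm1, Aars and Cox7a2l. The others were Actg1, Mif, Ctsd (32.4%, with Gm49369), Stat5b, Hmgn2, Uhrf1, Sytl3, Lyn and Cd63. A further overlap concerns strand. For 50 of the genes named, among them Mpo, Arsb, Cish, Pim1, Myb, Angpt1 and Bhlhe40, an exon of another gene lies on the opposite strand, and the use of strand in the counting is not given, so the reads of both could not be told apart.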

How the data were processed

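RNA of sorted BMBAs was captured on oligo(dT) beads, amplified by whole-transcriptome PCR and sequenced on the Ion Proton. The authors trimmed reads with Cutadapt, aligned them to GRCm38 reference RNA with Bowtie2 and deposited raw counts per gene symbol for 12 libraries (the labels also name the builds GRCm39 and mm10, with no versions of the tools). The sources used here do not say how strand, multiple matches or molecular identifiers were handled. The 1 unnamed row, a total, was dropped, 0 columns were unmapped, and groups came from the sample titles.

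Counts were analysed with edgeR 4.0.16 in R 4.3.3 (TMM, filterByExpr set to 10 counts a library and 15 in all, quasi-likelihood F test over the 4 groups, Benjamini-Hochberg adjustment over all genes tested). DESeq2 1.42.0 served the alternatives, and Python 3.11.15 with numpy 2.4.6, pandas 2.3.3 and matplotlib 3.10.9 for summaries. The test was also run on simulated counts, with results that are not given here. CPM used TMM effective library sizes, and the share of a list is its percentage of all counts. Libraries of the same number were not shown to be pairs, so no block was used in the main fit. Whether the cultures came from different mice is not given, so p-values measure the spread between these cultures.

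A rule gave 339 genes to name: the marker and granule protease genes, for each list the 3 genes with the largest change in each direction with at least 10 CPM in 1 group and no overlap, and the most abundant and the most changed genes. The text names 130 of these, and 93 further list members chosen after their values were seen. Most list members enter only the counts. The members and lists were chosen with earlier results of these data known. The lists describe; none was tested as a set. Promoter windows and their RefSeq starts are those of GRCm38.p6 (250 bases before to 50 after), and 1 was found for 77.5% of the genes tested, so motif shares are given only for lists with 80% or more, and those of tested or called genes hold for the genes with a window. Coordinates of genes are those of GENCODE vM21.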

Additional observations from a re-analysis of the deposited data

Results flagged for a closer look

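For 66 of the 218 tested genes named, the difference between immature and mature BMBAs was not the same in IL-3 and in TSLP cultures. This was by the test of the difference itself (the contrast between the effects in edgeR, adjusted p under 0.05). Over all genes tested the share called was 4.19%. Many of the named genes were picked for a large IL-3 change or after their values were seen. The higher share among them, and the larger change in IL-3, therefore follow in part from that choice. The values below are the IL-3 log2 fold change minus the TSLP log2 fold change. For each of these 66 genes the sign was the same in both cultures and the change was larger in IL-3. No explanation was tested.

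Among genes higher in immature cells, the difference was 2.74 for Phgdh, 2.65 for Shmt2, 2.01 for Rrm1, 1.26 for Paics, 2.14 for Gart, 1.03 for Tkt and 1.87 for Prps1 in nucleotide synthesis and one-carbon genes. It was 1.88 for Fdps, 1.64 for Sqle, 1.73 for Fasn, 1.37 for Idh3a, 2.42 for Idh2 and 2.47 for Tfrc in genes of sterols, fatty acids, the citric acid cycle and iron uptake. In protein synthesis and folding it was 1.62 for Aars, 1.28 for Calr, 0.96 for Hspa5 and 1.30 for Pdia6. In nuclear genes, Myb and the lysosomal Arsb it was 2.07 for Tmpo, 1.91 for Nup210, 1.33 for Dnmt1, 3.31 for Uhrf1, 2.14 for Myb and 1.01 for Arsb, and it was 2.56 for Nkg7, on the T and NK cell list.

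Among genes higher in mature cells, it was -2.15 for Pag1, -1.64 for Inpp4b, -3.29 for Socs3, -1.95 for Socs1, -2.05 for Cish, -1.69 for Pim1, -1.75 for Osm and -1.48 for Rgs2 in the IgE and cytokine signalling lists and -1.83 for Ptgs2, -1.23 for Sytl3, -1.69 for Cplx2, -1.35 for Mylip, -1.43 for Sgsh, -1.26 for Capg and -1.39 for Slc6a9 in exocytosis, lipid, lysosomal, actin and transport genes. It was -2.22 for Itga2, -2.03 for Cxcr2, -2.00 for Ccr2, -1.78 for Ccr3, -2.65 for Adgre1, -1.92 for C3ar1, -1.63 for C5ar1, -1.53 for P2ry14, -0.94 for S1pr1, -1.57 for Lilrb4a, -1.91 for Pirb, -1.45 for Cd69 and -1.56 for Itgam in chemoattractant, paired and adhesion receptors, with Itga2 encoding a protein of the sort gate and Cxcr2, Ccr2, Ccr3 and Adgre1 counted as neutrophil, monocyte or eosinophil markers. In cytokine and pattern receptors it was -3.65 for Il7r, -1.29 for Il18r1 and -1.54 for Nlrp3. In cytokines, interferon-stimulated and antigen presentation genes and transcription factors it was -1.58 for Ccl6, -1.50 for Ccl9, -1.58 for Ccl4, -1.60 for Csf1, -1.53 for Il6, -1.27 for Hgf, -2.14 for Ifitm1, -1.32 for Samhd1, -0.93 for H2-D1, -1.98 for Bhlhe40 and -1.23 for Nfil3.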

How the results depend on the processing

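The count of called genes stayed within 1.5 times of 5020 under all 21 alternatives, from 4179 with a filter of 10 CPM in 3 libraries to 5676 without TSLP mature library 1, and no gene called in both analyses changed direction under any of them. It was 4942 with the size factors of DESeq2, 4941 with scaling on uncalled genes, 4952 with library totals without Rn45s, 5115 with no filter, 4788 with the Wald test of DESeq2, 5318 with the 6 IL-3 libraries alone, 4449 with libraries thinned to the smallest total and 4193 to 4557 without 1 IL-3 library. Where 1 library left a group with fewer samples, the fit pooled the spread over the 4 groups. The count for the difference from TSLP cultures, 455, ranged from 240 to 723 with 1 library left out, and was 634 with library totals without Rn45s, 674 with no filter, 625 with the Wald test of DESeq2 and 318 in thinned libraries; the cause was not tested. With the replicate block 5251 genes were called in IL-3 and 556 for the difference from TSLP. The deviations of same-numbered immature and mature libraries correlated at 0.0849, -0.0769 and 0.0724, and not every sample correlated best with its own number. With 3 libraries a group, these values cannot exclude that both fractions of a number came from 1 culture. The majority of calls changed side or tied for glycolysis, iron and oxidant defence, amino acid transporters, calcium and the BCL-2 family and caspases, under 4, 8, 3, 1 and 1 of the 21 alternatives in that order, and kept its side under every alternative for the other 38 lists. Library totals without Rn45s moved the median of the G protein list to 0.02. Shares of counts kept their direction without each IL-3 library, and with normalised library sizes as the denominator they changed side only for serglycin and glycosaminoglycan synthesis, glycolysis and the pentose phosphate pathway, whose libraries overlapped. Depth limited genes under the floor of 3 counts over a group, 0.35 CPM in immature and 0.386 CPM in mature cells.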
